A study of Ipomoea batatas with 28 samples.

Results

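The roots compared here, all wild type, are the thickest storage roots of the hexaploid crop sweet potato (Ipomoea batatas), stage S20 at 25 mm diameter, and younger storage roots of stages S14 (10 mm) and S16 (15 mm). The S20 group holds 4 libraries (replicates 1, 2, 3 and 5) and the early storage group holds 8, which makes 12 of the 28 libraries of the series. Fibrous roots of stages S4 (1.5 mm) and S8 (2 mm), 8 libraries, give the starting point of the earlier change, and pencil roots of stages S10 (3.5 mm) and S12 (5 mm) lie between. All groups are untreated, of the same genotype, and were sampled from the middle section of the root, with 4 biological replicates per stage per the labels' protocols. The cultivar and the number of plants per library are not given in the sources used here.

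Sweet potato storage roots form when some fibrous roots stop lignifying their central cylinder and thicken through the vascular cambium and further cambia in the storage parenchyma. As the root bulks, parenchyma cells fill with starch and with the storage proteins sporamin and beta-amylase. The late storage roots were therefore compared with early storage roots to see which transcripts changed after bulking had begun, and whether these changes went on in the direction taken between fibrous and early storage roots or went back.

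The values are TPM, a share of each library scaled to a fixed total and divided by transcript length, so an ID can fall as a share while others rise, and fewer cells of a type cannot be told apart from less RNA per cell. Depth was unknown, and the only measure of error was the spread between replicates. The table names its rows by IDs without gene names, and 0 of them matched the 175826 rows of the reference table used here. For that reason rows are called IDs, sporamin and the other marker genes could not be looked up, the storage root label was not checked against them, and no sequence is shown. A row may hold part of a gene, and in a hexaploid the division of reads among near-identical copies is uncertain.

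Late storage roots differed from early storage roots in 5908 of 75757 IDs tested (7.80%), while 29.0% were called between early storage and fibrous roots, a comparison with 8 libraries on each side in place of 4 and 8. Of these, 3133 were higher in S20 (4.14% of those tested) and 2775 were lower (3.66%), with median log2 folds of 1.34 and -1.41. Changes of 8-fold or more were called for 69 higher and 50 lower IDs. A call needed an adjusted p under 0.05 (limma, Benjamini-Hochberg over all IDs tested) and a log2 fold of at least 1 in size on the log2(TPM + 1) scale, and 12024 IDs passed the adjusted p alone. The median fold of all IDs was -0.03, so the comparison was nearly centred in the TPM as deposited. S20 replicate 1 carried part of the falls, since 1819 IDs were lower without it, against 2531 higher. The balance of directions turned with the treatment of low values, from 53.0% of calls higher to 40.1% with a pseudocount of 0.1 and 41.1% with a filter of 5 TPM.

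S20 also differed from each early stage taken singly. S20 differed from S14 in 6991 IDs (9.23%) and from S16 in 4491 (5.93%), while S16 differed from S14 in 101 (0.133%). Against both stages 1658 IDs were higher and 1285 were lower in S20. Libraries did not overlap for 1801 of the 3133 higher IDs and 1483 of the 2775 lower IDs, where 5.06% and 4.30% of all IDs tested showed such a gap in the same directions. The higher and lower IDs were called from these same libraries, so the contrast is a description.

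Most late changes with an earlier counterpart went on in the same direction. The earlier change, early storage against fibrous roots, was called for 15651 higher (20.7%) and 6302 lower IDs (8.32%). Of the 3133 IDs that rose late, 1302 (41.6%) had risen before, 34 (1.09%) had fallen before and 1797 (57.4%) had no earlier call. Of the 2775 that fell late, 1013 (36.5%) had fallen before, 470 (16.9%) had risen before and 1292 (46.6%) had no earlier call. Continued changes therefore numbered 2315 and reversed changes 504.

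**Figure D1:**
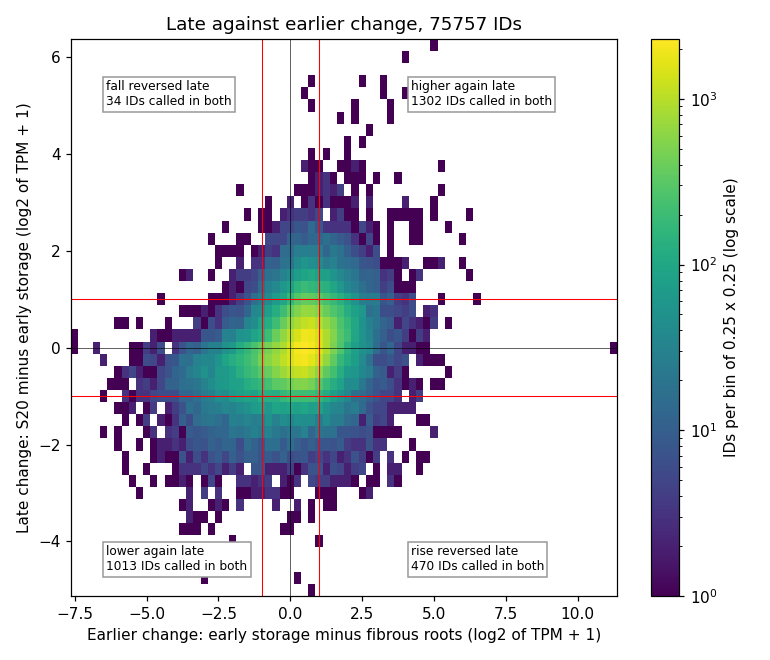
Each cell counts IDs by their earlier change (x axis, early storage minus fibrous roots) and late change (y axis, S20 minus early storage), both as differences of mean log2(TPM + 1), with colour on a log scale and red lines at log2 folds of 1 and -1. The lower left corner holds 1013 called IDs and the upper left 34, while the upper right holds 1302 and the lower right 470. The axes share the early storage libraries.

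The same counts can be read from the side of the earlier change. Of the IDs that fell before, 16.1% fell again, against 3.66% of all IDs tested, and 0.540% rose, against 4.14%. Of those that rose before, 8.32% rose again, against 4.14%, and 3.003% fell, against 3.66%. Late falls were more frequent among IDs with a higher mean TPM over all libraries. They made up 0.166% of the range below 1 TPM but 23.5% of the range from 100 TPM upwards. Earlier falls were called for 396 of 13878 IDs in the first range and 379 of 1343 in the second. Comparisons with all IDs, here and below, were not matched for this mean, and its part in them was not tested. The earlier and the late comparison both use the S14 and S16 libraries with opposite sign, which by itself pushes IDs towards reversal. With S14 against fibrous roots for the earlier step and S20 against S16 for the late one, which share no library, 1075 IDs rose again, 932 fell again, 230 rises were reversed and 8 falls were reversed. Of the earlier rises 6.76% then rose again and 1.45% fell, and of the earlier falls 14.5% fell again and 0.125% rose, against 3.17% higher and 2.76% lower over all IDs. With the roles of S14 and S16 exchanged the counts were 1978, 998, 392 and 24. Both steps then cover the change from S14 to S16, which by itself pushes IDs towards continuation. The shares were 12.4% and 2.47% of the earlier rises and 16.7% and 0.403% of the earlier falls, against 4.99% higher and 4.23% lower over all IDs. In the TPM as deposited and without shared libraries, the share of rises that were reversed thus lay below that of all IDs in both versions. This is by value and without a test, and other scalings were not run for these versions. Only the version with S20 against S16 has steps that do not overlap in stage. More changes were continued than reversed under each alternative run, the removal of each library included.

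The sizes of these classes depended on scaling. Taken over all IDs, the median earlier fold was 0.44 as deposited, 0.08 with median-of-ratios scaling and 0.10 with quantiles made equal (quantile normalization). The earlier split was therefore 7355 higher and 9945 lower with the first rescaling and 8162 and 9246 with the second, in place of 15651 and 6302. Median-of-ratios scaling gave 934 IDs higher again, 1120 lower again, 219 reversed rises and 88 reversed falls. Under all 3 scalings the same class was found for 746, 822, 215 and 33 IDs. With median-of-ratios scaling 219 of 7355 earlier rises were reversed, where 2158 of all 75757 IDs tested fell late. With quantile normalization 342 of 8162 were reversed, where 2826 of all IDs fell late. In neither case did the reversed share lie below that of all IDs, unlike in the TPM as deposited. S20 replicate 1 also decided part of the reversals, with 258 reversed rises and 12 reversed falls without it. The reversed falls numbered 17 without S20 replicate 5 and 53 without S16 replicate 3.

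The IDs that fell again were abundant transcripts of fibrous roots. Together these 1013 IDs held 15.3% ± 1.21 (SD, n = 8) of all TPM in fibrous roots, 3.03% ± 0.593 (SD, n = 8) in early storage roots and 0.832% ± 0.0812 (SD, n = 4) in S20. The single S20 libraries held 0.720%, 0.887%, 0.896% and 0.825% in the order of replicates 1, 2, 3 and 5, all below the lowest early storage library at 2.30%. Their median over IDs stood at -1.94 at S14 and -2.01 at S16 relative to the fibrous mean on the log2 scale, and at -3.58 at S20. The 10 most abundant of them in fibrous roots made up 16.3% of the class's share there, so the fall was spread over many IDs. For 590 of the 1013, every S20 library lay below all 24 other libraries, as it did for 2.34% of all IDs tested. These values describe IDs chosen by the same comparisons and are given without a test.

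G2060_TU3440 had the largest late fall by the rule for naming among 227 eligible IDs that fell again. It stood at 6.07, 67.05, 41.29 and 38.94 TPM in S20 replicates 1, 2, 3 and 5, against 242 to 645 TPM in early storage roots (median 422) and 1123 to 4070 TPM in fibrous roots (median 2909). The fibrous and early storage libraries did not overlap either, and S20 replicate 1 was the lowest library. A gap between S20 and early storage roots was a condition for naming, for this and the other 3 named IDs. The late log2 fold was -3.75 (SE 0.44, limma adjusted p = 1.68e-06) after an earlier fold of -2.65 (SE 0.36, limma adjusted p = 7.13e-07). The fold was -3.95 against S14 (SE 0.52) and -3.56 against S16 (SE 0.52). Its G number has 3 rows, which summed to 447 ± 154 TPM (SD, n = 8) in early storage roots and 40.3 ± 26.1 (SD, n = 4) in S20.

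The IDs that rose again held little of the TPM in fibrous roots. These 1302 IDs held 0.297% ± 0.0646 (SD, n = 8) of TPM in fibrous roots, 1.84% ± 0.381 (SD, n = 8) in early storage roots and 8.07% ± 3.45 (SD, n = 4) in S20. The S20 libraries differed widely among themselves, at 12.5%, 5.65%, 5.04% and 9.06% in the order of replicates 1, 2, 3 and 5, yet the lowest lay above the highest early storage library at 2.41%. The 10 most abundant of these IDs in S20 held 5.54% of TPM in replicate 1, 1.26% in replicate 2, 0.496% in replicate 3 and 3.35% in replicate 5, so much of the spread among S20 roots came from few IDs. Replicates 1 and 5 were the high ones. In early storage roots the same 10 IDs held 0.295% ± 0.285 (SD, n = 8). For 818 of the 1302, every S20 library lay above all 24 others, as it did for 4.56% of all IDs tested, and here too the class was chosen for being higher in S20.

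**Figure D2:**
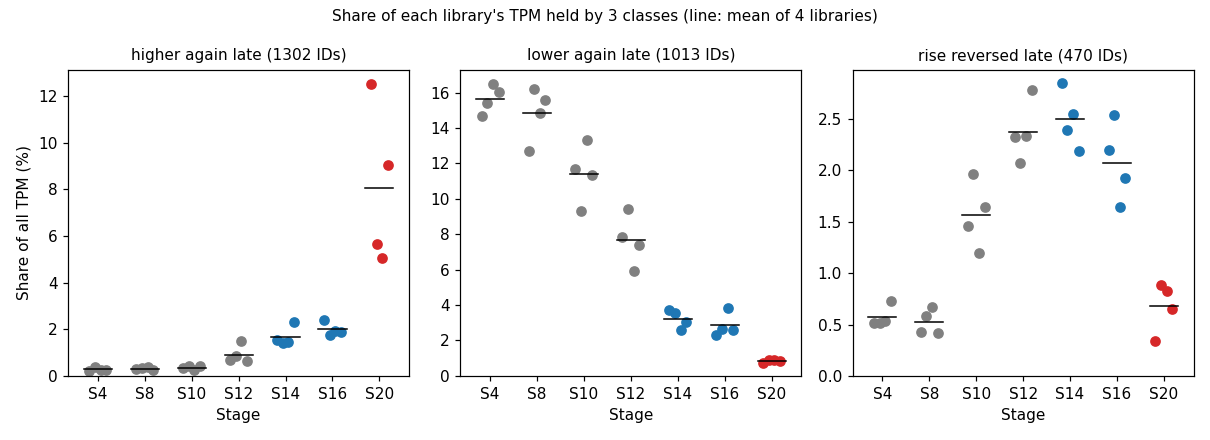
Each point is a library, and the y axis gives the share of its TPM held by the IDs of a class, from 0, with S20 in red, S14 and S16 in blue, thinner roots in grey and the mean of each stage as a line. The 1302 IDs that rose again reach 5.04% to 12.5% in S20, the 1013 that fell again drop from 15.3% in fibrous roots to 0.832%, and the 470 reversed rises return from 2.29% in early storage roots to 0.676%.

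G41734_TU68224 had the largest late rise by the rule for naming among 388 eligible IDs that rose again. It stood at 259, 579.55, 649 and 426 TPM in S20 replicates 1, 2, 3 and 5, against 3.09 to 62.4 TPM in early storage roots (median 12.3) and 0 to 1.41 TPM in fibrous roots. S20 also lay above every fibrous and pencil library, and replicate 1, the highest for the class as a whole, was the lowest for this ID. The late log2 fold was 4.78 (SE 0.62, limma adjusted p = 6.69e-06) after an earlier fold of 3.50 (SE 0.51, limma adjusted p = 1.76e-06). The levels also differed inside the early storage group, with S14 between 3.09 and 12.8 TPM and S16 between 11.7 and 62.4 TPM. The fold was accordingly 5.93 against S14 (SE 0.58) and 3.62 against S16 (SE 0.58).

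A rise that was reversed late was typically present in pencil roots already. The 470 IDs of this class stood, by their median, 1.18 (S10) and 1.67 (S12) above the fibrous mean on the log2 scale in pencil roots, 1.86 (S14) and 1.49 (S16) above it in early storage roots, and 0.14 above it in S20. The pencil libraries entered neither difference that chose these IDs, but they added to the shared estimate of the spread and counted in the filter. The fibrous mean they are set against did enter the choice, which by itself favours positive values in pencil roots. The choice of opposite folds past the same threshold likewise favours an S20 median near the fibrous level. Their share of TPM went from 0.549% ± 0.110 (SD, n = 8) in fibrous roots to 2.29% ± 0.383 (SD, n = 8) in early storage roots and 0.676% ± 0.243 (SD, n = 4) in S20. Against fibrous roots, S20 was still called higher for 62 of them and lower for 19, and 389 had no call, which does not show that the levels were equal. Over all IDs tested, 39.8% were called between S20 and fibrous roots.

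MSTRG.17344 had the largest late fall by the rule for naming among 51 eligible reversed rises. It stood at 2.63, 1.67, 6.61 and 2.16 TPM in S20 replicates 1, 2, 3 and 5, against 16.9 to 37.0 TPM in early storage roots (median 30.2). In fibrous roots it was listed at 0 in 6 of 8 libraries and at 21.3 and 10.9 TPM in the others, so fibrous libraries lay on both sides of S20. The late log2 fold was -2.86 (SE 0.88, limma adjusted p = 0.0270) and the earlier one 3.82 (SE 0.72, limma adjusted p = 6.55e-05). Taken singly, S20 was not called against S14 (-2.74, SE 1.06, limma adjusted p = 0.0839) or S16 (-2.97, SE 1.06, limma adjusted p = 0.0797). The late call was lost with a pseudocount of 0.1 (limma adjusted p = 0.151) and without S20 replicate 1, 2 or 5 (0.0748, 0.0730 and 0.0778), within a range of 0.00429 to 0.151 over the alternatives. For the sum with the ID before it in the numbering, fibrous roots held 20.02 ± 11.2 TPM (SD, n = 8) and early storage roots 28.3 ± 7.49 (SD, n = 8), and the groups overlapped, at 9.58 to 38.2 and 16.9 to 37.0 TPM. That neighbour was listed at 0 in all 12 storage libraries, so the sum says nothing further about the late fall.

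**Figure D3:**
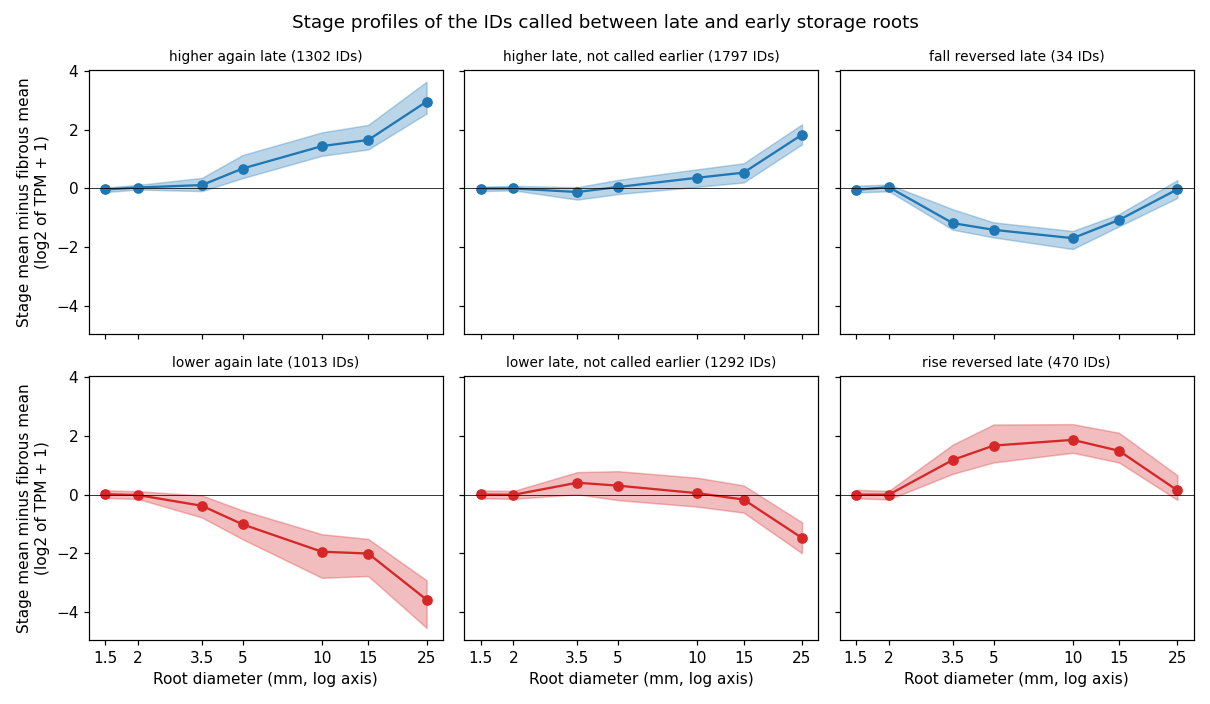
Lines are medians and bands the quartiles, over the IDs of each class, of the stage mean minus the fibrous mean in log2(TPM + 1), against root diameter on a log axis. IDs that rose or fell again step further at 25 mm, to 2.96 and -3.58, whereas reversed rises and reversed falls end near the fibrous level, at 0.14 and -0.03. These classes were chosen by earlier and late folds past the same threshold, with the same or opposite sign. That choice by itself favours such ends.

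A fall that was reversed late was rare. The 34 IDs of this class had medians of -1.18 (S10) and -1.41 (S12) relative to the fibrous mean in pencil roots, -1.69 (S14) and -1.07 (S16) in early storage roots, and -0.03 in S20. S16 lay between S14 and S20, and 31 of the 34 were called higher against S14 and 6 against S16, where 4.99% and 3.17% of all IDs were called higher. The class was chosen with these same libraries for a fall from fibrous roots and a rise in S20. The medians and counts are therefore a description and are given without a test. Of the 34, 33 had no call between S20 and fibrous roots and 1 was lower in S20. The class held 0.0515% ± 0.0103 (SD, n = 8) of TPM in fibrous roots, 0.0157% ± 0.00725 (SD, n = 8) in early storage roots and 0.0547% ± 0.0247 (SD, n = 4) in S20.

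G36582_TU59995 had the larger late rise of the 2 eligible reversed falls. It stood at 45.9, 34.6, 23.7 and 42.3 TPM in S20 replicates 1, 2, 3 and 5, against 2.42 to 14.8 TPM in early storage roots (median 8.84) and 29.1 to 89.9 TPM in fibrous roots (median 46.3). S20 overlapped the fibrous libraries. The late log2 fold was 1.94 (SE 0.49, limma adjusted p = 0.00693) after an earlier fold of -2.41 (SE 0.40, limma adjusted p = 1.20e-05), and S20 and fibrous roots differed by -0.47 (SE 0.49, limma adjusted p = 0.429). Taken singly, the S20 rise was called against S14 (2.33, SE 0.56, limma adjusted p = 0.00576) but not against S16 (1.55, SE 0.56, limma adjusted p = 0.0825).

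**Figure D4:**
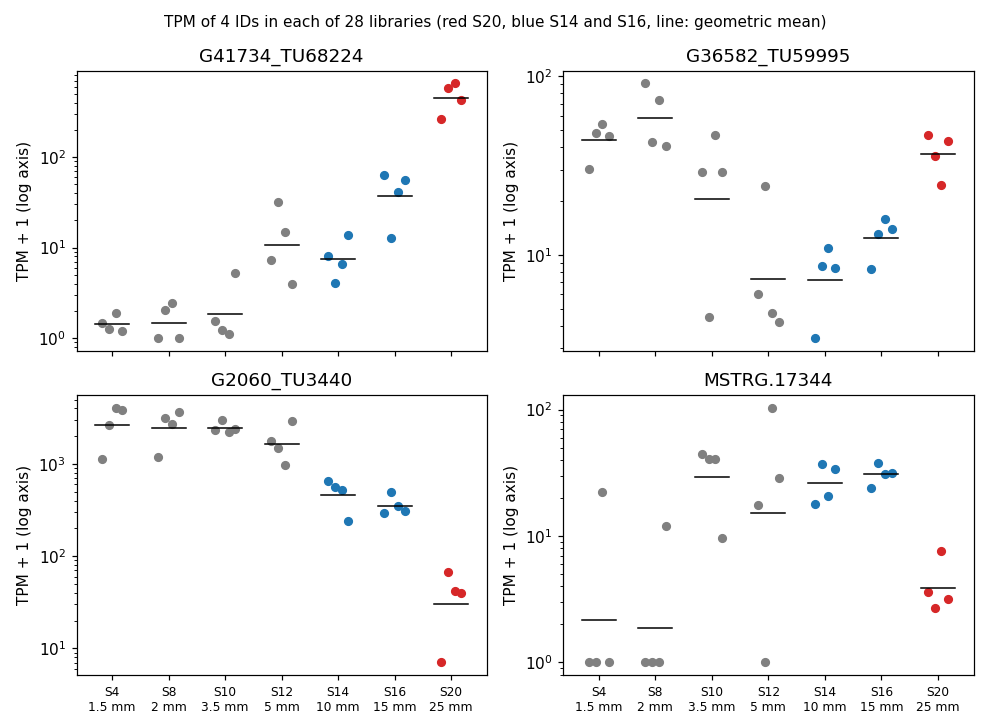
Each point is the TPM + 1 of a library on a log axis, by stage with the root diameter, and the line is the geometric mean of 4 libraries. G41734_TU68224 climbs to 259 TPM or more in S20 and G2060_TU3440 drops to 67.05 TPM or less, while G36582_TU59995 and MSTRG.17344 move back from their early storage levels.

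The largest class of late rises, 1797 IDs, had no earlier call. Their median stood at 0.37 at S14 and 0.54 at S16 above the fibrous mean and at 1.83 at S20, and 1681 of them were called higher in S20 than in fibrous roots, as were 27.5% of all IDs. Their mean over all libraries was under 5 TPM for 83.8% of them. Of the 75757 IDs tested, 13878 had a mean under 1 TPM and 32185 a mean of 1 to 5 TPM. That mean comes mostly from libraries other than S20, and the class was chosen for being higher in S20. An ID can also pass the filter through the S20 libraries alone. The 1797 IDs held 0.362% ± 0.0537 (SD, n = 8) of TPM in fibrous, 0.666% ± 0.313 (SD, n = 8) in early storage and 2.52% ± 0.929 (SD, n = 4) in S20 roots. The 1292 late falls without an earlier call had a median of 0.41 in S10 pencil roots, 0.05 in S14, -0.17 in S16 and -1.48 in S20, relative to the fibrous mean. They held 4.69% ± 0.525 (SD, n = 8) of TPM in fibrous, 4.11% ± 0.399 (SD, n = 8) in early storage and 1.40% ± 0.361 (SD, n = 4) in S20 roots. Of these, 926 were called lower in S20 than in fibrous roots, as were 12.3% of all IDs, and the class was chosen for being lower in S20. A missing earlier call does not show that an ID was constant before S16.

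Direction went with the mean level over all libraries. Among the 1343 IDs with a mean of at least 100 TPM over all libraries, 316 (23.5%) fell and 38 (2.83%) rose late. Among the 32185 IDs with a mean of 1 to 5 TPM, 452 (1.40%) fell and 1701 (5.29%) rose. The split was similar after rescaling, with the ranges still set by the mean of the TPM as deposited. At 100 TPM or more there were 39 higher and 283 lower IDs under median-of-ratios scaling and 38 and 305 under quantile normalization, and at 1 to 5 TPM 1735 and 267, and 1676 and 333. The mean includes fibrous and pencil roots, where the IDs that fell again were high, and the pseudocount compresses the changes of low IDs. It comes mostly from libraries other than S20, which by itself places late falls in higher ranges and late rises in lower ones. How much of the pattern this accounts for was not tested.

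**Figure D5:**
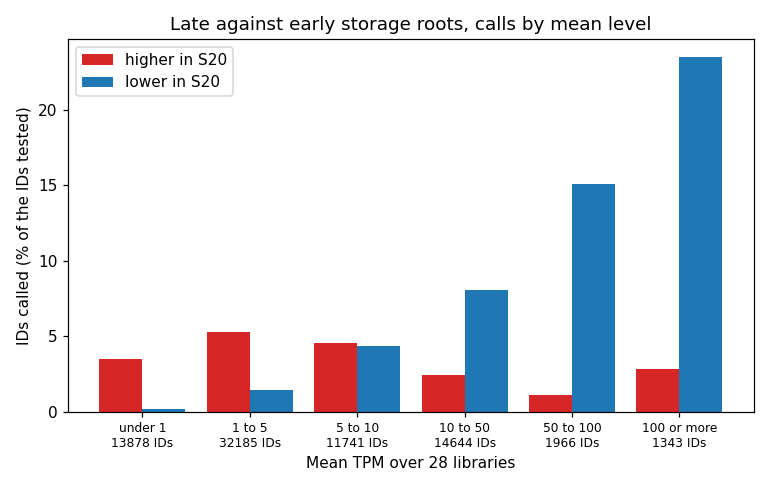
Bars give the percentage of the IDs tested in each range of mean TPM that were called higher (red) or lower (blue) in S20 than in early storage roots. Falls grow from 0.166% of IDs under 1 TPM to 23.5% at 100 TPM or more, and rises are most frequent at 1 to 5 TPM, with 5.29%. The filter can be met by the S20 libraries alone, and the pseudocount compresses the changes of low IDs.

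The whole-library measures tested did not differ past the threshold. S20 libraries held 59267 ± 1146 IDs at 1 TPM or more (SD, n = 4) against 59447 ± 1058 in early storage roots (SD, n = 8), a difference of -180 (two-sided exact permutation test over all choices of 4 of the 12 libraries, p = 0.798, adjusted over these 2 measures 0.798). The 1000 most abundant IDs took 36.3% ± 4.25 of TPM (SD, n = 4) against 33.8% ± 2.67 (SD, n = 8), a difference of 2.51 percentage points (exact permutation p = 0.230, adjusted 0.461). S20 replicate 3 was the lowest S20 library there, at 30.3%, and without it the difference was 4.52 points (exact permutation p = 0.0182). Along the axis from the fibrous mean (0%) to the early storage mean (100%) in log2(TPM + 1), the S20 libraries stood at 114.9% to 119%, beyond the early storage libraries at 84.8% to 112%, which define the upper end. S20 replicate 1 lay farthest from the early storage mean, with a root mean square distance of 0.979, against 0.724 to 0.809 for the other S20 libraries and 0.598 to 0.707 for each early storage library from the mean of the other 7.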

How the data were processed

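The table deposited by the authors holds TPM in 99697 rows, with 1 column per library. TopHat2 2.0.0 and RSEM 1.3.1 are named, per the submitters' processing notes, and their roles, the genome build and the annotation are not given in the sources used here. Columns were matched to samples by the description label, whose replicate numbers are used here and differ from those in the titles. IDs with 1 TPM or more in at least 4 of 28 libraries were kept and analysed as log2(TPM + 1).

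limma 3.58.1 in R 4.3.3 was fitted with a trended prior to 5 groups over all 28 libraries, namely fibrous (S4, S8), S10, S12, early storage (S14, S16) and S20. A 7-stage fit gave the contrasts with single stages. Calls needed an adjusted p under 0.05 and a log2 fold of at least 1 in size. The alternatives were other pseudocounts, filters, scalings, weights, blocks, groupings and row sums, disjoint libraries and the removal of each library. Classes under all 3 scalings were added after seeing the data. The fit was tested on simulated data for late against early storage roots (75757 IDs, changed IDs drawn from those with a mean log2 above 3 and an SD under 0.8). It recovered 54 of 67 changes of 1.5, 58 of 67 of 2 and 66 of 66 of 3 on the log2 scale, with 5 other calls, and made 0 calls with no change. The noise was normal and independent, with a single mean and spread per ID over all libraries. The simulation therefore does not cover libraries of unequal spread, and its recovery does not cover lower or more variable IDs, where many late rises lay. Plots used Python 3.11.15 and Matplotlib 3.10.9.

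The groups, classes and naming rule were chosen with earlier results of these data known. The rule took, per class, the largest late fold among IDs with a mean of 10 TPM or more in the higher group, 1 TPM or more in all 12 storage libraries, no overlap, and the same calls under all 3 scalings.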

Additional observations from a re-analysis of the deposited data

Results flagged for a closer look

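Of 39 sets of library values looked at (library measures, TPM of the 4 named IDs and class shares, each in S20, early storage and fibrous roots), 3 held a library with a wide gap to the rest, where chance gives about 1 in 20. S14 replicate 5 had 39.9% of its TPM in its 1000 most abundant IDs, against a median of 33.3% in early storage roots. The same library held 1.40% of its TPM in IDs that rose late without an earlier call, against a median of 0.549%. S4 replicate 1 lay 1.42 from the early storage mean, against a median of 1.20 in fibrous roots.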

How the results depend on the processing

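Of 175 recomputed counts and library measures, other than those without a library, 40 moved by more than 1.5 times or crossed a threshold. A pseudocount of 5 gave 2028 late calls (972 higher, 1056 lower), 4540 higher and 3330 lower earlier, 303 higher again, 386 lower again, 185 reversed rises, 4 reversed falls, 12852 calls against fibrous roots, 2713 against S14 and 1722 against S16. A pseudocount of 0.1 gave 24889 higher earlier, 1664 lower again and 81 reversed falls. A filter of 5 TPM gave 1874 higher late. Without a fold threshold there were 12024 late calls (6440 higher, 5584 lower), 34043 higher and 10267 lower earlier, 4748 higher again, 1943 lower again, 1725 reversed rises, 122 reversed falls, 11367 calls against S14 and 7132 against S16. Median-of-ratios scaling gave 7355 higher and 9945 lower earlier, 219 reversed rises and 88 reversed falls. Quantile normalization gave 8162 higher earlier and 84 reversed falls, and library weights 67 reversed falls. The disjoint libraries gave 230 reversed rises and 8 reversed falls with S20 against S16, and 1978 higher again with S20 against S14. Under all 3 scalings 6727 were higher earlier, 746 higher again and 215 reversed rises. The cause of these moves was not tested.

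Leaving out each library in turn gave 4350 to 6479 late calls, 2531 to 3432 higher and 1819 to 3119 lower. It gave 14758 to 16401 higher and 6102 to 6583 lower earlier, 1071 to 1388 higher again, 764 to 1061 lower again, 258 to 584 reversed rises and 12 to 53 reversed falls. Calls ran from 29348 to 30540 against fibrous roots, 5188 to 7864 against S14 and 3184 to 4992 against S16. The difference in the 1000 most abundant IDs ran from 1.25 to 4.52 points, and that in IDs at 1 TPM or more from -619 to 217.

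Same-numbered libraries of S14, S16 and S20 did not deviate together (correlations -0.0842 to 0.0647 over 9 pairs), so no pairing by number was seen in these stages. With the replicate block there were 5764 late calls, 1319 higher again, 975 lower again, 433 reversed rises and 32 reversed falls, and with title numbers 5908 late calls. MSTRG.17344 had an adjusted p of 0.0510 (limma) under the block. The other 3 named IDs kept their late call against pooled early storage under every alternative run for it, which left out the disjoint libraries. The same calls under median-of-ratios scaling and quantile normalization were a condition for naming, so the outcome of those alternatives was fixed in advance.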

Other observations

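Late calls were counted by the kind of ID, without a test. Of 18601 MSTRG rows tested, 2.42% were higher and 2.93% lower in S20, against 4.73% and 4.12% of the 26330 rows whose G number has a single row. There were 10816 G numbers with 2 or more rows tested, of which 461 had at least 2 rows called late, and 5 had rows called in both directions. There were 3 IDs listed at 0 in all 8 early storage libraries with at least 1 TPM in all 4 S20 libraries, and 2 IDs with the reverse pattern.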
